A study of Mus musculus with 6 samples.

Results

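Sequence that lay in a lamina-associated domain (LAD) of all 3 lamin knockdown maps without a break for at least 1 Mb is described here, on mouse chromosomes 1 to 19. A core stretch is a run of base pairs inside the deposited LADs of every map, and the members are the core stretches of 1 Mb or more. There were 353 members among 1849 core stretches. The members were chosen by measured values, since the LAD lists are calls made by the authors for the same maps. Their levels, and the differences between maps over them, are therefore descriptions, with no test. The other core stretches were 794 of 300 kb to 1 Mb and 702 under 300 kb.

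LADs are megabase-scale stretches of chromatin that touch the nuclear lamina, the mesh of lamin filaments under the inner nuclear membrane. They are known to be poor in genes, low in transcription and late in replication, and in many cell types the same LADs recur while others come and go. The Lmna gene gives lamin A and lamin C by alternative splicing, and both are found at the lamina and inside the nucleus, while lamin B1, from Lmnb1, is anchored to the membrane by a lipid tail. DamID uses an adenine methyltransferase from bacteria (Dam) joined to a lamin, so that GATC sites near the lamina become methylated and their fragments can be read out. Unfused Dam reports how open the sequence is and gives the value that the fusion is divided by.

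All cells were wild-type mouse embryonic fibroblasts (MEFs) of the C57BL/6 strain that had received a lentiviral shRNA, puromycin selection and then a lentivirus for Dam alone or a Dam fusion. Dam-LmnB1 was the fusion in the LmnA RNAi map and in the LmnC RNAi map, and Dam-LmnA was the fusion in the LmnB1 RNAi map. Each map rests on 1 Dam-only and 1 fusion library, so there were 6 libraries and no replicates, and the spread between repeat maps is unknown. The treatment protocol mentions only shRNA to LmnA or LmnC and the Dam-LmnB1 fusion. The LmnB1 target was taken from the sample description and Dam-LmnA from the sample title. Differences that involve the LmnB1 RNAi map therefore mix target and fusion, whose parts cannot be told apart. The files used here hold DamID signal alone, so neither the knockdowns nor the fibroblast identity were checked against RNA or protein of marker genes. Cells that received no shRNA were not analysed here. Coordinates are in the mm9 build, and the genes inside the members are not given because no annotation of that build was used.

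The members made up 714.66 Mb. They were 19.1% of the core stretches and held 55.7% of the core length, and their fragments held 29.8% of the autosomal fragment length. The median member was 1666 kb long (interquartile range 1272 to 2271 kb). Core stretches of 300 kb to 1 Mb had a median of 512 kb and added up to 438 Mb, and those under 300 kb had a median of 182 kb and added up to 130.3 Mb. Of the members, 213 reached 1.5 Mb, 117 reached 2 Mb, 27 reached 4 Mb and 9 reached 5 Mb. The 117 members of 2 Mb or more held 53.1% of the member length. Near the 1 Mb limit the levels overlapped. The shortest member, chr10:55077085-56077771, had log2 ratios of 2.10 with LmnA RNAi, 1.48 with LmnC RNAi and 2.00 with LmnB1 RNAi. The longest core stretch below the limit, chr7:5071994-6071736, had 2.67, 2.09 and 2.17 in the same order. The 5 members nearest above the limit had between 2.10 and 3.09 with LmnA RNAi, and the 5 core stretches nearest below it had between 2.48 and 2.69.

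The signal of a stretch is the mean, weighted by fragment length, of the deposited log2 ratio of fusion over Dam-only reads across its GATC fragments. It averages over a population of cells, so contact in fewer cells and weaker contact in each cell cannot be told apart. Over all member fragments together it was 2.41 with LmnA RNAi, 1.74 with LmnC RNAi and 1.98 with LmnB1 RNAi. Core stretches of 300 kb to 1 Mb had 2.27, 1.36 and 1.56 in the same order, and those under 300 kb had 1.89, 0.95 and 1.24. Sequence in no LAD had -2.06, -3.13 and -2.17. The longer the class of core stretch, the higher was its mean in each of the 3 maps. The members minus the shortest class came to 0.52 on the log2 scale with LmnA RNAi, 0.79 with LmnC RNAi and 0.74 with LmnB1 RNAi, and to 0.33, 0.46 and 0.39 without fragments read in 1 library.

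**Figure D1:**
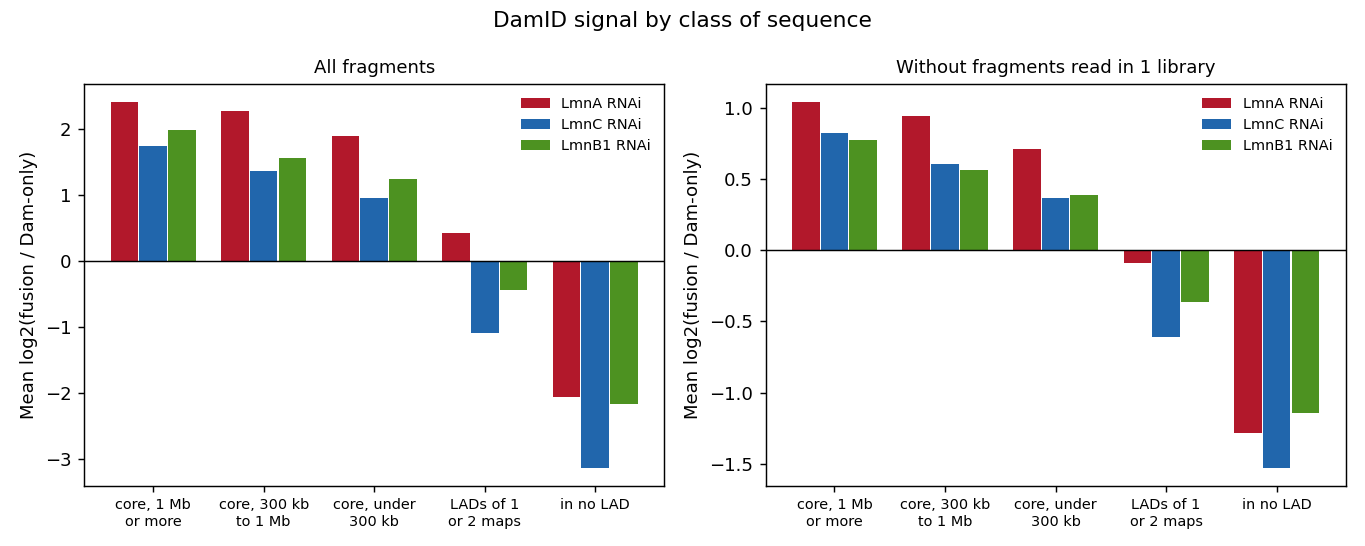
Mean log2(fusion / Dam-only) over all fragments of each class of autosomal sequence (bars, 1 colour per map), with all fragments on the left and without fragments read in only 1 library on the right. Core stretches of 1 Mb or more had the highest bar of each map in both panels, at 2.41, 1.74 and 1.98 on the left and 1.04, 0.82 and 0.78 on the right for LmnA, LmnC and LmnB1 RNAi.

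Many fragments were read in 1 library only, and these carry extreme values because 1e-05 was added before the log. In the members, 22.9% of the 1839291 fragments were read in the fusion library alone with LmnA RNAi, 19.6% with LmnC RNAi and 20.5% with LmnB1 RNAi. Fragments read in Dam-only alone were 4.35%, 5.36% and 4.77%. Sequence in no LAD showed the mirror image, with 6.60%, 3.85% and 5.10% of fragments read in the fusion library alone and 16.4%, 23.3% and 19.5% in Dam-only alone. Fragments at the constant of the map (0 reads in both libraries, or equal reads) were 29.8%, 30.1% and 31.3% of those in members. Total reads per library are unknown, because only ratios were deposited. Without the fragments read in 1 library the member means were 1.04, 0.82 and 0.78 with LmnA, LmnC and LmnB1 RNAi. The order of the core classes by length was the same without them, with 0.71, 0.37 and 0.39 in core stretches under 300 kb. Over the members, which of the LmnC RNAi map and the LmnB1 RNAi map stood higher did change: LmnB1 RNAi was the higher with all fragments and LmnC RNAi the higher without them.

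Member by member, the mean log2 ratio was 2.43 ± 0.36 with LmnA RNAi, 1.72 ± 0.49 with LmnC RNAi and 1.93 ± 0.37 with LmnB1 RNAi (SD over 353 members). The lowest, median and highest members had 0.72, 2.46 and 3.61 with LmnA RNAi. They had -0.62, 1.83 and 2.81 with LmnC RNAi, and -0.02, 1.99 and 2.78 with LmnB1 RNAi. No member was below 0 with LmnA RNAi, 5 were with LmnC RNAi and 1 was with LmnB1 RNAi. The spread was thus widest in the LmnC RNAi map. There 30 members had a ratio under 1, against 7 in the LmnB1 RNAi map and 3 in the LmnA RNAi map. Counts under a fixed cut also follow the level of each map. Of all autosomal 100 kb windows, 34.9% were below 0 with LmnA RNAi, 49.3% with LmnC RNAi and 43.4% with LmnB1 RNAi. Shares of windows under higher cuts were not computed. The median 100 kb bin was 0.06 with LmnC RNAi, 0.53 with LmnB1 RNAi and 1.21 with LmnA RNAi. The median standard error of a member over its fragments was 0.09, 0.08 and 0.08, well under the SD between members. Means from odd and from even fragments of the same member correlated with r of 0.910, 0.959 and 0.928 across the 353 members. These errors treat the fragments of a member as independent within 1 pair of libraries. Where nearby fragments vary together they understate the variation along the sequence, and they do not cover the spread between cultures.

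A member could have a high mean in one map and a middling one in another. Across the 353 members the LmnA RNAi and LmnC RNAi means correlated with Pearson r = 0.858 and Spearman rho = 0.818. LmnC RNAi and LmnB1 RNAi gave 0.778 and 0.657, and LmnA RNAi and LmnB1 RNAi gave 0.611 and 0.419. Over the members the pair that shared the Dam-LmnB1 fusion had the highest value. Without the 20 members of lowest mean over the maps, r was 0.783, 0.625 and 0.366 in the same order of pairs. Spearman rho was then 0.785, 0.593 and 0.313. These members were left out by a mean of the values being correlated, which narrows the range, so part of the fall is built in. Over 2401 autosomal windows of 1 Mb, which run from LADs to open sequence, r was 0.970 for LmnA RNAi and LmnC RNAi, 0.985 for LmnC RNAi and LmnB1 RNAi, and 0.968 for LmnA RNAi and LmnB1 RNAi. There a pair with different fusions had the highest value, so the order of the pairs was not that over the members. These points share libraries and base composition, and the members span a narrow range of signal, so the values describe the maps and carry no test.

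**Figure D2:**
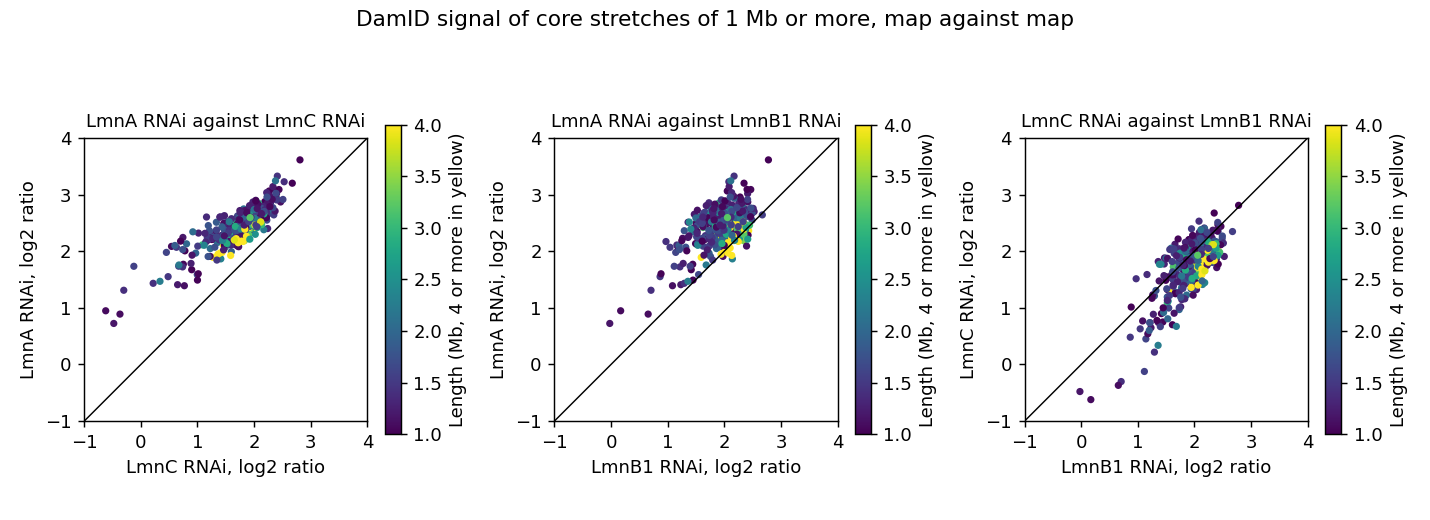
Mean log2(fusion / Dam-only) of each of the 353 members (points) in one map against another, coloured by length, with the line of equal values. All points lie above the line for LmnA RNAi against LmnC RNAi, and the members of 4 Mb or more (yellow) lie at or near the line for LmnA RNAi against LmnB1 RNAi and below it for LmnC RNAi against LmnB1 RNAi.

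The members of highest signal were short. The top one, chr2:176383582-177398792 (1.02 Mb, 3006 fragments), had 3.61 with LmnA RNAi, 2.81 with LmnC RNAi and 2.78 with LmnB1 RNAi, and 1.40, 1.24 and 0.92 without fragments read in 1 library. Its 9 windows of 100 kb ran between 2.80 and 5.06, between 2.25 and 3.26, and between 2.47 and 3.25 in those maps, so no window of it came near 0. A neighbour on the same chromosome, chr2:174307235-175324802, had 3.20, 2.67 and 2.35. Both ends of the top member and the end of this neighbour lie at assembly gaps, so there the length is bounded by the assembly, and both members lie in the same LmnA RNAi LAD and the same LmnC RNAi LAD. Of all members, 22 had an edge at an assembly gap or chromosome end. The member chr4:143019043-144453429 (1.43 Mb) had 3.33, 2.41 and 2.17, and it was among the members richest in GATC, at 3.20 fragments per kb against a median of 2.54. The other two of the 5 highest were chr2:36137016-37188555 (3.09, 2.44 and 2.47) and chr11:73164187-74174768 (3.09, 2.36 and 2.40). Standard errors over fragments were between 0.04 and 0.12 for the 46 members covered by the naming rule.

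The members of lowest signal were also short, and on the deposited scale those named here were lowest with LmnC RNAi. LmnC RNAi was below LmnA RNAi in all 353 members, so that part of the order is not particular to them. The member chr4:53542167-54715251 (1.17 Mb, 2984 fragments) had 0.72 with LmnA RNAi, -0.48 with LmnC RNAi and -0.02 with LmnB1 RNAi. Its 11 windows of 100 kb were below 0 in 1 case with LmnA RNAi, in 9 with LmnC RNAi and in 5 with LmnB1 RNAi. Such window counts depend on the level of each map. With the median 100 kb bin of each map subtracted, this member had -0.49, -0.54 and -0.55 in the same order. On chr18:10861066-11945304 (1.08 Mb) the ratios were 0.95, -0.62 and 0.17, and all 10 windows were below 0 with LmnC RNAi. With all fragments, no other member had every window below 0 in a map. Both regions stand in the deposited LAD lists of all 3 maps although their length-weighted mean with LmnC RNAi was negative. How LADs were called is not given, so no rule of the calls is read from this. The remaining members below 0 with LmnC RNAi were chr13:27248459-28347801 (0.89, -0.37 and 0.66), chr8:6406110-7812478 (1.31, -0.30 and 0.71) and chr18:48312554-49889583 (1.73, -0.12 and 1.12). With the median bins subtracted, LmnC RNAi was still the lowest map in these and in chr18:10861066-11945304. Members under 0.5 with LmnC RNAi numbered 9 and lay on 5 chromosomes, 3 of them on chromosome 18, 2 on chromosome 1 and 2 on chromosome 4.

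Longer members were more alike. Members of 1 to 1.5 Mb (n = 140) had 2.44 ± 0.47 with LmnA RNAi, 1.66 ± 0.62 with LmnC RNAi and 1.83 ± 0.45 with LmnB1 RNAi (SD over members). Those of 4 Mb or more (n = 27) had 2.25 ± 0.20, 1.74 ± 0.22 and 2.11 ± 0.17. The SD of the long class was less than that of the short one in each map. Of the 9 members under 0.5 with LmnC RNAi, 6 were of 1 to 1.5 Mb, 2 of 1.5 to 2 Mb and 1 longer.

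The relation of the mean level to length was weak and differed in sign between the maps. Spearman's rho of length with signal over 353 members was -0.14 with LmnA RNAi, 0.03 with LmnC RNAi and 0.26 with LmnB1 RNAi. Within the middle 500 kb of each member rho was -0.19, -0.01 and 0.22. Measured from the mean of the members of the same chromosome it was -0.12, 0.03 and 0.25. The 2 longest members show the range: chr14:106855251-114309786 (7.45 Mb, 17944 fragments) had 1.92 with LmnA RNAi, 1.58 with LmnC RNAi and 2.13 with LmnB1 RNAi, and chr1:100095021-107511952 (7.42 Mb, 20033 fragments) had 2.44, 1.77 and 1.93. So LmnB1 RNAi gave the highest value in the first and LmnA RNAi in the second.

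**Figure D3:**
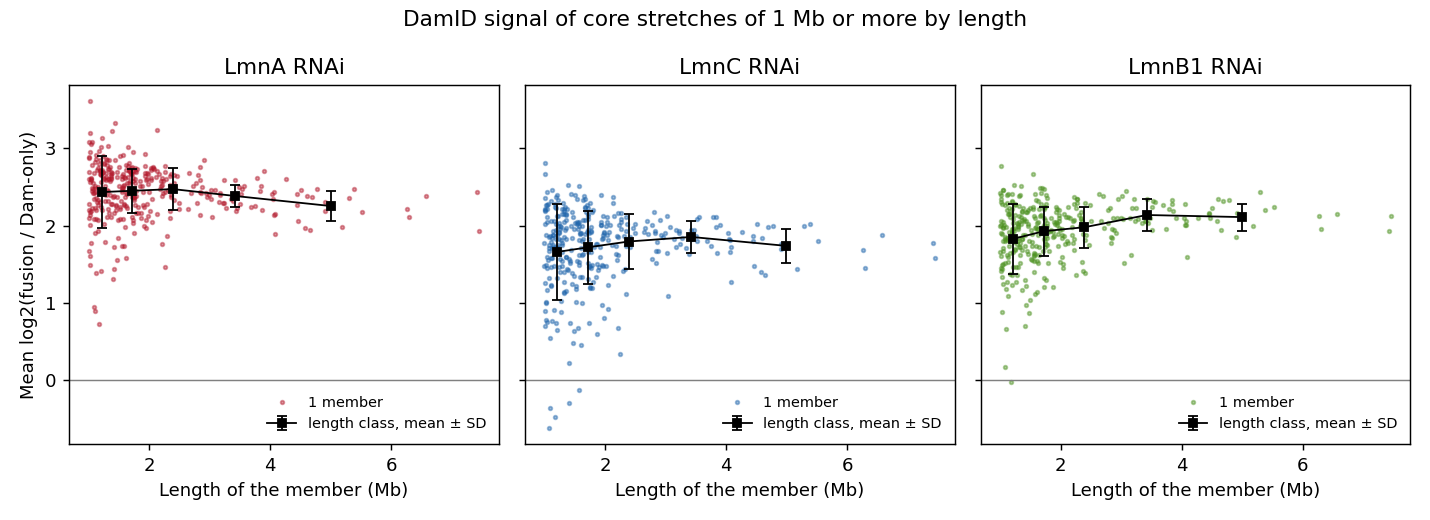
Mean log2(fusion / Dam-only) of each member (points) against its length in Mb, with 1 panel per map, and the mean ± SD of 5 length classes (squares). The class means lie between 2.25 and 2.47 with LmnA RNAi, between 1.66 and 1.85 with LmnC RNAi and between 1.83 and 2.14 with LmnB1 RNAi, and the low members are nearly all under 2 Mb.

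The LmnA RNAi and LmnC RNAi maps, made with the same fusion, were compared over the members. The ratio was higher with LmnA RNAi in 353 of 353, with a median difference of 0.66 on the log2 scale (lowest 0.16, highest 1.86). The median difference over all autosomal 1 Mb windows was 0.92. LmnA RNAi was higher by more than 0.5 in 285 members (80.7%), against 87.8% of these windows. The members thus stood below the background share, and the whole map was higher with LmnA RNAi. The median 100 kb bin was 1.21 with LmnA RNAi and 0.06 with LmnC RNAi. With each map centred on its median bin, the median difference was -0.49 and the sign turned: LmnA RNAi was lower by more than 0.5 in 171 members (48.4%), against 23.5% of windows. When fragments read in 1 library were left out the median difference was 0.22, and 19 members (5.38%) were higher by more than 0.5, against 16.4% of windows. No direction for the members can be given that is independent of how the maps are scaled.

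The widest gaps between these maps were in members that were low with LmnC RNAi. The LmnC RNAi value is part of the difference and had the widest spread over members, so this is partly built into the ranking. On chr18:48312554-49889583 (1.58 Mb) the LmnA RNAi minus LmnC RNAi difference was 1.86, and 8 of its 14 windows were below 0 with LmnC RNAi and none was with LmnA RNAi. The members chr3:20092855-21185201 (2.08 with LmnA RNAi, 0.54 with LmnC RNAi and 1.18 with LmnB1 RNAi) and chr1:10777219-12381600 (1.98, 0.45 and 1.14) had differences of 1.54 and 1.53. At the other end, chr7:113454240-114803548 had 2.40 with LmnA RNAi and 2.24 with LmnC RNAi, a difference of 0.16. On chr10:63569872-65783832 the values were 2.38 and 2.17. Length went with the size of the gap, which averaged 0.78 ± 0.28 in members of 1 to 1.5 Mb and 0.52 ± 0.10 in those of 4 Mb or more (SD over 140 and 27 members), and rho of length with the difference was -0.29.

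Between LmnA RNAi and LmnB1 RNAi the median difference over members was 0.51 (lowest -0.30, highest 1.20), beside 0.48 over 1 Mb windows. The difference was above 0 in 336 of 353 members. The share of 1 Mb windows above 0 was not computed for any pair, so counts by sign have no background here. LmnA RNAi was higher by more than 0.5 in 182 members (51.6%), against 47.6% of 1 Mb windows, a share near the background. Leaving out fragments read in 1 library, the difference was 0.31 and 47 members (13.3%) were higher by more than 0.5, against 7.08% of windows. With centred maps it was -0.17, beside a median of -0.20 over windows, and 103 members were above 0. This difference followed length most closely of the 3 pairs, with rho of -0.38 (-0.36 without fragments read in 1 library). It averaged 0.61 ± 0.31 in members of 1 to 1.5 Mb and 0.14 ± 0.19 in members of 4 Mb or more, and 6 of these 27 long members were higher with LmnB1 RNAi. A constant added to a map moves all members alike and leaves rho as it is. A different range of values in one map could change rho, and this was not tested. The largest difference was on chr4:151891260-153312954, at 2.17 with LmnA RNAi and 0.97 with LmnB1 RNAi. Close to it were chr15:71731771-72867172 (2.72 and 1.52) and chr4:127063029-128269852 (2.65 and 1.47). LmnB1 RNAi was the higher on chr7:100059671-101179362 (2.09 with LmnA RNAi and 2.39 with LmnB1 RNAi) and on chr5:55784430-58079891 (1.86 and 2.14).

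Between LmnC RNAi and LmnB1 RNAi the median difference was -0.21 (lowest -1.24, highest 0.54), beside -0.51 over 1 Mb windows. LmnC RNAi was higher in 86 members, a count by sign that again has no background share. LmnC RNAi was lower by more than 0.5 in 57 members (16.1%), against 50.5% of 1 Mb windows. Without fragments read in 1 library the median was 0.06 and no member was lower by more than 0.5, against 2.29% of windows. With centred maps it was 0.26, and 73 members (20.7%) were higher by more than 0.5 with LmnC RNAi, against 7.83% of windows. The sign over the members thus turned with the scaling and with the fragments used. The LmnC RNAi value is part of this difference too, so its low end favours members low in that map. The lowest differences were again in members poor in LmnC RNAi signal, at -1.24 on chr18:48312554-49889583, -1.08 on chr4:29091062-30505963 (0.22 with LmnC RNAi and 1.29 with LmnB1 RNAi) and -1.02 on chr18:50356050-52611834 (0.34 and 1.36). The first and the last of these are neighbours on chromosome 18. All 27 members of 4 Mb or more were lower with LmnC RNAi than with LmnB1 RNAi, by 0.37 ± 0.15. Without fragments read in 1 library that mean difference was -0.01 ± 0.08. The median window was also lower with LmnC RNAi, so the direction was not particular to long members. With centred maps the longest members differed in sign, at -0.08 on chr14:106855251-114309786 and 0.32 on chr1:100095021-107511952.

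Signal was not flat inside a member. In members of 2 Mb or more (n = 117), the SD over 100 kb windows of the same member had a median of 0.54 with LmnA RNAi, 0.59 with LmnC RNAi and 0.53 with LmnB1 RNAi. In the longest member the lowest, median and highest of 74 windows were 0.30, 2.00 and 3.08 with LmnA RNAi. They were -0.29, 1.69 and 2.75 with LmnC RNAi, and 0.98, 2.18 and 3.14 with LmnB1 RNAi. Dips below 0 were thus possible within an unbroken core stretch. Of 6779 windows in members, 11 were below 0 with LmnA RNAi (0.162%), 236 with LmnC RNAi (3.48%) and 51 with LmnB1 RNAi (0.752%). Over all autosomal windows the shares were 34.9%, 49.3% and 43.4%, and since the members were chosen by this signal nothing is read from the contrast. With fragments read in 1 library left out, 49, 281 and 127 member windows were below 0, beside 41.4%, 51.2% and 47.7% of all windows. At least 1 window below 0 was found in 9 members with LmnA RNAi, 108 with LmnC RNAi and 36 with LmnB1 RNAi, and 4 windows were below 0 in all 3 maps. The counts were highest in the LmnC RNAi map with either set of fragments. Among members with a mean above 0 in every map, chr1:83215141-84689486 had 0, 7 and 3 of its 13 windows below 0.

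The signal rose at once on crossing an edge and then slowly. Averaged over 682 edges that do not touch an assembly gap or chromosome end, the first 20 kb inside had 2.14 with LmnA RNAi, 1.34 with LmnC RNAi and 1.59 with LmnB1 RNAi. The 20 kb just outside had 0.20, -1.02 and -0.50. The lowest point lay 20 to 40 kb outside, at -0.26, -1.48 and -0.87, and beyond it the signal was higher again, at 0.47, -0.62 and -0.10 between 180 and 200 kb. Inside, at 480 to 500 kb, it reached 2.50, 1.76 and 1.97. Standard errors over edges were between 0.035 and 0.090. The outer 100 kb of a member was on average lower than its middle (more than 200 kb from either edge) by 0.21 with LmnA RNAi, 0.35 with LmnC RNAi and 0.30 with LmnB1 RNAi, and lower in 229, 258 and 258 of 353 members. The edges were set by these same maps, so the profile describes the calls. With fragments read in 1 library left out, the outer 100 kb was lower by 0.16, 0.22 and 0.19.

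**Figure D4:**
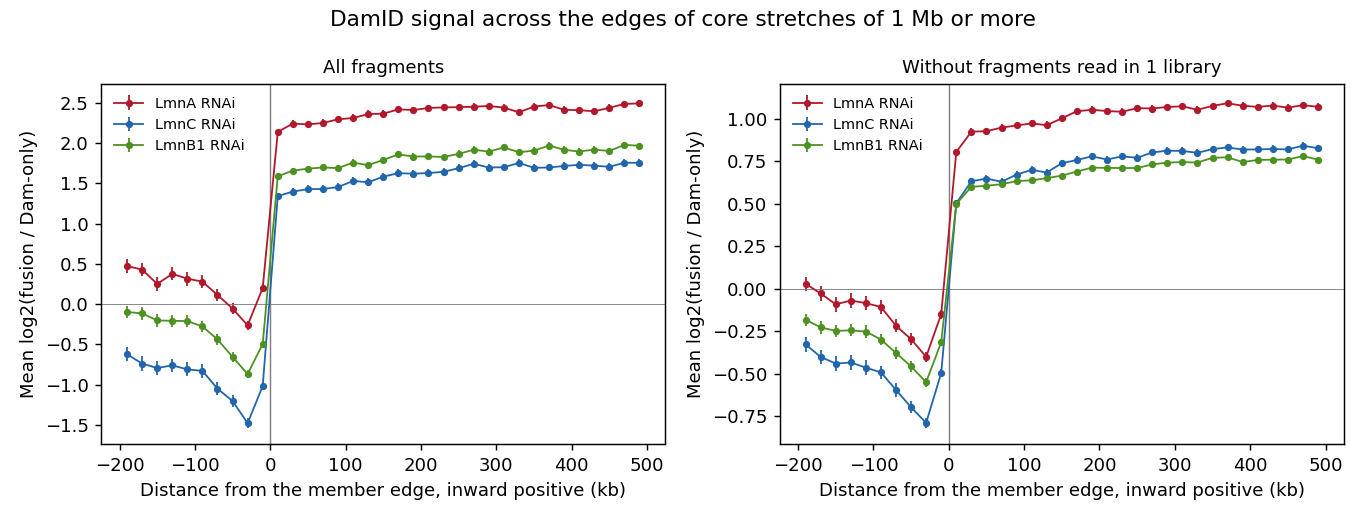
Mean log2(fusion / Dam-only) in 20 kb steps against the distance from 682 member edges in kb, inward positive, with error bars of 1 standard error over edges, for all fragments (left) and without fragments read in 1 library (right). All 3 maps step up at the edge, keep rising over about 300 kb, and are lowest 20 to 40 kb outside.

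Most edges were set by only some of the maps. Within 10 kb, the LADs of all 3 maps stopped together at 100 of 682 edges (14.7%). The LmnC RNAi LAD alone stopped at 184, the LmnB1 RNAi LAD alone at 171 and the LmnA RNAi LAD alone at 69. At the others, 94 were shared by LmnC and LmnB1 RNAi, 40 by LmnA and LmnC RNAi, and 24 by LmnA and LmnB1 RNAi. The LmnA RNAi LAD ran on past 449 edges (65.8%), by a median of 237 kb. The LmnC RNAi LAD ran on past 264 (38.7%) by 127 kb, and the LmnB1 RNAi LAD past 293 (43.0%) by 210 kb. So the ends of these stretches were most often ends of LmnC RNAi or LmnB1 RNAi LADs. With a tolerance of 25 kb, all 3 stopped together at 197 edges (28.9%).

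The members filled most of the LADs that held them. They lay in 316 LADs of the LmnA RNAi map, 334 of the LmnC RNAi map and 331 of the LmnB1 RNAi map. The median member was 81.3% of its LmnA RNAi LAD, 98.2% of its LmnC RNAi LAD and 97.5% of its LmnB1 RNAi LAD. Of the autosomal LADs of 1 Mb or more, 174 of 490 with LmnA RNAi, 71 of 405 with LmnC RNAi and 78 of 409 with LmnB1 RNAi held no member. LADs of that length without a core stretch of 1 Mb were thus most numerous in the LmnA RNAi list. In the LmnA RNAi map 33 LADs held 2 members and 2 held 3, and the longest LAD with a member was 13.0 Mb.

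The next core stretch was within 1 Mb of most member edges. From a member edge to the next core stretch the distance had a median of 217 kb (interquartile range 73.1 to 572 kb) over 680 edges. It was under 100 kb at 225 of them (33.0%) and over 1 Mb at 110. There were 623 breaks beside a member, of which 17 were mostly assembly gap and are left out here, and 75 of the other 606 lay between a pair of members. Of the 200 breaks under 100 kb, 120 lay wholly inside a LmnA RNAi LAD, 75 wholly inside a LmnC RNAi LAD and 111 wholly inside a LmnB1 RNAi LAD. The median signal of these narrow breaks was -0.10 with LmnA RNAi, -1.40 with LmnC RNAi and -0.58 with LmnB1 RNAi. The 176 breaks of 500 kb or more were deeper, at -1.40, -2.60 and -1.70. So narrow breaks held intermediate signal, and the LmnA RNAi LAD and the LmnB1 RNAi LAD each continued through most of them.

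Core stretches made up a varied share of the surroundings. Within 5 Mb on either side of a member, 54.8% of fragment length lay in other core stretches (median, range 8.44% to 96.1%). This share had no clear relation to the signal of the member (rho of -0.11 in the LmnA RNAi map, -0.09 in the LmnC RNAi map and -0.004 in the LmnB1 RNAi map) or to its length (0.06).

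Every autosome held members, between 8 on chromosome 19 and 27 on chromosome 3. Their summed length, as a share of the length under fragments, was 29.6% ± 5.69 (SD over 19 chromosomes). It was lowest on chromosome 11, at 19.0%, and highest on chromosome 14, at 39.5%. As a share of the core length of the chromosome, members made up 43.2% on chromosome 9 and 65.7% on chromosome 14, the extremes. Chromosomes 12 and 14 had similar core shares, of 57.7% and 60.0%, yet members made up 48.9% of the core on 12 and 65.7% on 14. This pair thus differed in how its core was split more than in how much core it had. Other chromosomes differed in both. Chromosome 11 had a core share of 42.5%, with 44.8% of the core in members. Chromosome 6 had 58.5%, with 61.9%. The relation over all chromosomes was not tested.

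**Figure D5:**
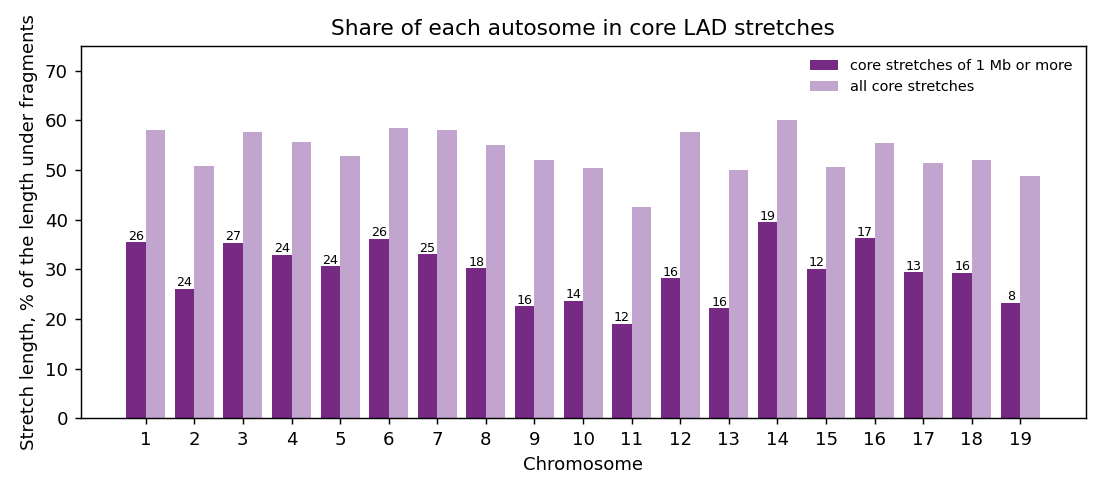
Length in core stretches of 1 Mb or more (dark bars, number of members above) and in all core stretches (light bars) as a percentage of the length under fragments, by autosome. Chromosome 14 has the highest dark bar at 39.5% and chromosome 11 the lowest at 19.0%.

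Signal of the members varied little between chromosomes. Chromosome means ran between 2.28 and 2.57 with LmnA RNAi, between 1.48 and 1.90 with LmnC RNAi and between 1.73 and 2.23 with LmnB1 RNAi. Between-chromosome differences made up 4.36%, 5.69% and 8.17% of the variance over members. These shares are not corrected for the number of chromosomes, and any grouping of members takes up some of the variance. Chromosome 10 stood highest with LmnB1 RNAi (2.23 over 14 members) and had 2.46 with LmnA RNAi and 1.90 with LmnC RNAi, so its LmnA RNAi minus LmnB1 RNAi difference was 0.23, the smallest of the 19. Chromosome 18 stood lowest with LmnC RNAi (1.48 over 16 members) and had the widest spread there, with an SD of 0.94, and it holds 3 of the 9 members under 0.5.

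Members took a smaller share of the far end of the chromosomes than of the start, which is the centromere end of the acrocentric mouse chromosomes. The first 10 Mb with fragments held 40 members adding up to 62.6 Mb (33.0% of 190 Mb), and the last 10 Mb held 22 with 41.4 Mb (21.8%), beside 29.8% of fragment length over all autosomal sequence. The end thus departed from the whole more than the start did. Members near the start had 2.39 ± 0.45 with LmnA RNAi, 1.60 ± 0.70 with LmnC RNAi and 1.75 ± 0.46 with LmnB1 RNAi (SD over 40). Those near the end had 2.56 ± 0.38, 1.85 ± 0.47 and 2.00 ± 0.40 (SD over 22), a difference smaller than the spread between members in each map. With each chromosome split into 3 equal parts, 140, 112 and 101 members lay in the first, middle and last, where they made up 32.7%, 31.0% and 25.04% of the length.

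GATC sites, which decide where DamID can read, were slightly denser in core stretches of any length. Members had 2.59 fragments per kb of sequence under fragments, core stretches of 300 kb to 1 Mb 2.59, those under 300 kb 2.59, and sequence in no LAD 2.41. The median fragment was 245 bp in members and 281 bp in sequence in no LAD. Among members the density ran between 2.22 and 3.23 fragments per kb of span (median 2.54). It went with the signal: the 89 members richest in GATC had 2.60 ± 0.37 with LmnA RNAi, 1.94 ± 0.50 with LmnC RNAi and 2.05 ± 0.35 with LmnB1 RNAi, against 2.34 ± 0.30, 1.60 ± 0.42 and 1.90 ± 0.36 in the 88 poorest (SD over members). Spearman's rho over 353 members was 0.31, 0.34 and 0.18. Without fragments read in 1 library it was 0.01, 0.15 and -0.15, so the relation was weaker there in all 3 maps and of opposite sign in the LmnB1 RNAi map. The 5 members densest in GATC included chr5:94567362-96496751 (3.23 per kb) and 3 members on chromosome 7 between 13658124 and 24857456. The density did not separate members from shorter core stretches.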

How the data were processed

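The 3 DamID maps, each from a Dam-only and a fusion library, were used. Per the submitters' processing notes, Bowtie (version not stated) and mm9 were used. How ratios were made and LADs were called is not given in the sources used here. For each GATC fragment the authors deposited 1 log2 value, and from the steps of the values each is the log2 ratio of fusion over Dam-only reads with 1e-05 added, plus a constant per map (-0.34 for LmnA RNAi, 0.21 for LmnC RNAi, -0.15 for LmnB1 RNAi). The deposited LAD lists give starts and ends in bp with no score used here.

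LAD lists were intersected on chromosomes 1 to 19, and stretches of at least 1 Mb were kept. A fragment belongs to a stretch when its middle lies in it, and means are weighted by fragment length. Fragments beyond 12 in size were taken as read in 1 library, and sequence of 10 kb or more that no fragment covered as assembly gaps. Windows of 100 kb and 1 Mb needed 50% of their length under fragments. Python 3.11.15, numpy 2.4.6 and pandas 2.3.3 were used, and the intersection and the means were tested on simulated data. With 1 map per knockdown there was no test. Standard errors cover fragments or edges only. Printed starts count from 1.

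Regions are named by this rule: the 10 longest members, the 5 highest and 5 lowest by mean over the maps, the 5 largest and 5 smallest differences of each pair of maps, the 5 with most 100 kb windows below 0, and the 5 nearest to 1 Mb on each side. The text gives some of each, and the members densest in GATC were named after their values were seen. The members and the lists were chosen with earlier results of these data known. Alternatives were other limits of length, joined breaks, pairs of lists, fragments left out, equal weights, centred maps, 50 kb windows and a 25 kb tolerance. Sequences and genes of the members were not used here.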

Additional observations from a re-analysis of the deposited data

How the results depend on the processing

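No paired analysis was possible because each group holds 1 library. The number of members was 353 with assembly gaps removed, 382 with breaks of 50 kb or less joined, 461 with a limit of 0.8 Mb, 368 to 386 with any pair of lists, and 213 with a limit of 1.5 Mb, which by construction is fewer. The cause of the other changes below was not tested. The mean log2 ratio of the members was 2.41 with LmnA RNAi, 1.74 with LmnC RNAi and 1.98 with LmnB1 RNAi. In that order it was 1.04, 0.82 and 0.78 without fragments read in 1 library, 2.70, 1.91 and 2.23 without fragments at the constant, 3.65, 3.12 and 3.10 with each fragment weighted equally, 1.20, 1.68 and 1.45 with each map centred on its median 100 kb bin, and 2.40, 1.77 and 2.03 with the limit of 1.5 Mb. All stayed above 0.

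The LmnA RNAi minus LmnC RNAi median of 0.66 was 0.22 without fragments read in 1 library, turned to -0.49 in centred maps and to -0.21 with both, an alternative chosen after seeing the data. The members past 0.5 numbered 285 (80.7%, against 87.8% of 1 Mb windows), and 19, 1 and 0 under these. The shares of windows under these were 16.4%, 7.54% and 0.541%, beside 5.38%, 0.283% and 0% of members. The LmnA RNAi minus LmnB1 RNAi median of 0.51 turned to -0.17 in centred maps and was 0.022 with both. The 182 members past 0.5 for this pair became 47 without fragments read in 1 library, 3 centred and 0 with both. These were 51.6%, 13.3%, 0.850% and 0% of members, against 47.6%, 7.08%, 3.42% and 0.125% of windows. The LmnC RNAi minus LmnB1 RNAi median of -0.21 turned to 0.064, 0.26 and 0.20 in the same order. The 57 members below -0.5 for this pair (16.1%, against 50.5% of windows) became 0, 6 and 0. The shares of windows there were 2.29%, 14.0% and 0%, beside 0%, 1.70% and 0% of members. Without fragments at the constant there were 93 such members (26.3%), against 57.6% of windows.

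With fragments read in 1 library left out, the outer 100 kb minus the middle was -0.16 with LmnA RNAi, -0.22 with LmnC RNAi and -0.19 with LmnB1 RNAi. Windows below 0 in members were 0.723% with LmnA RNAi and 1.87% with LmnB1 RNAi without these fragments, and 0.431% and 1.44% with 50 kb windows. All 3 maps stopped at 197 edges with a tolerance of 25 kb. The relation of length to LmnC RNAi signal turned to -0.015 in the middle 500 kb, and on chr18:10861066-11945304 the LmnB1 RNAi ratio turned to -0.15 without fragments read in 1 library. Of the recomputed values among the main results, 32 stayed within their interval or within 1.5 times, including some given above. For a median difference the interval was that of a single member, which is wide. The LmnA RNAi minus LmnB1 RNAi change from 0.51 to 0.31 without fragments read in 1 library lay within it. With no repeat maps and unknown total reads, the precision of a difference between maps is unknown.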
